A study of Mus musculus with 18 samples.

Results

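Recovery after acute ischemic injury in kidneys without tubular IKKβ was followed in the 6 poly(A) RNA-seq libraries of the deletion strain taken after ischemia/reperfusion (I/R): 3 libraries at 14 days and 3 at 2 days, of 18 libraries in the whole series. All genes were compared, and the libraries were grouped by their labels. The strain, termed IKKβ∆Tub, was Pax8-rtTA-LC1 Cre/IKKβ fl/fl, in which doxycycline switches on Cre along the Pax8-positive nephron epithelium, and the other cells of the kidney keep IKKβ. All groups of the series carry the floxed allele, received doxycycline in the drinking water from 6 weeks of age and had a wash-out before a clamp of 30 min on the left renal pedicle, except that the 6 baseline libraries, 3 of IKKβ∆Tub and 3 of control, had no I/R. The other libraries after I/R were of control mice (IKKβ fl/fl without Cre), 3 at 14 days and 3 at 2 days.

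IKKβ is the kinase that marks the NF-κB inhibitors for degradation and so releases NF-κB into the nucleus. After ischemia, proximal tubule cells die or shed their brush border, and the surviving cells lose transporter expression, take on injury markers such as kidney injury molecule 1 and divide to refill the tubule. Recovery is the reverse course: cell division ends, transport and lipid oxidation return, and leukocytes and fibroblasts recede.

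Levels are given as deposited, as the read count of a gene divided by the 90th percentile of all genes in its library, so they compare one gene between libraries and not one gene with another. The libraries held 17059123 to 25933188 reads at 14 days and 12306138 to 23850455 reads at 2 days, and a single read was worth 0.000429 to 0.000732 at 14 days and 0.000512 to 0.00104 at 2 days. Both times share a library batch. The baseline libraries are of another batch, with 26285452 to 66317182 reads in IKKβ∆Tub. Wherever a level is set against baseline, batch and injury cannot be told apart. As the libraries are of whole kidney, fewer cells of a type and less RNA per cell cannot be told apart. Fold changes are on the log2(value + 0.005) scale, which understates the change of low genes, and adjusted p-values are from limma over 16342 genes with the spread shared by all 18 libraries. A lone value in parentheses after a gene, or after "rose by", "fell by" or "was at", is a log2 fold change of 14 days over 2 days.

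The labels of the libraries were checked with 2 marks. Ikbkb (IKKβ, chromosome 8 from 22659212 to 22706589 on the minus strand of GRCm38) had 0.843, 0.669 and 0.844 at 14 days, against 0.856, 0.846 and 0.986 at 2 days. The levels at baseline were 0.551, 0.426 and 0.376, below every library after I/R, and control libraries had 1.11 to 1.21 at 14 days and 0.829 to 1.29 at 2 days. These reads come from the whole gene and from all kidney cells, so they do not isolate the deleted part in tubules. Vmn1r32 (a vomeronasal receptor gene, chromosome 6 from 66552180 to 66560096, minus strand) was read in IKKβ∆Tub and in no control library at baseline or 14 days. Neither the labels nor the text of the study name it as a mark, so its use rests on this pattern in the same libraries. Vmn1r32 had 0.0592, 0.0417 and 0.0473 at 14 days, against 0.0177, 0.0164 and 0.016 at 2 days, and the control libraries at 2 days had 0.00177 to 0.0234. At 2 days both marks overlapped between the strains, and Vmn1r32 in IKKβ∆Tub was below every other library of the strain, so the 2-day group is to be read as the libraries labelled IKKβ∆Tub.

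Sex and, by the deposited sample key, animal series moved with time as well. Xist, the RNA of the inactive X chromosome, had 10.6, 6.24 and 6.43 at 14 days, against 0.0104, 0.000512 and 1.53 at 2 days. The 4 Y-linked genes Ddx3y, Eif2s3y, Kdm5d and Uty summed to at most 0.000666 at 14 days, against 1.07, 1.73 and 0.544 at 2 days, so that replicate 3 at 2 days held both Xist and Y-linked RNA. The deposited sample key gives a single mouse for each library at 14 days. For each library at 2 days it gives a pair of pooled mice from another numbered series of animals. The sample titles differ from the key and, like the study, give pools throughout, with the same mouse numbers at both times. Time, sex, pooling and animal series cannot be told apart in these 6 libraries. A fit with presence of Y-linked RNA as a term, estimated from the groups of mixed sex, is therefore given beside the gene lists. The p-values measure the spread between libraries within groups, shared by all 18 libraries and not taken from these 6 alone.

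The contrast between the times was broad. Of 16342 genes tested, 2260 (13.8%) were higher and 3143 (19.2%) lower at 14 days, and 123 rose and 412 fell by more than 4-fold. The median log2 fold change over all genes was -0.04. With the Y-linked term the counts were 912 higher (5.58%) and 1879 lower (11.5%), with a median of -0.10, and 2469 of the 5403 genes were called in both fits, all with the same sign. All 3 libraries at 14 days lay above all 3 at 2 days for 16.9% of genes and below them for 23.1%. Without replicate 1 at 2 days 1270 genes were higher, and without replicate 3 at 2 days 1464. Counts in gene lists are to be read against these shares: the p53 target, macrophage, interferon response and complement lists had shares of higher or lower genes near those of all genes, and nothing is read from their counts. The same holds for lists with at most 5 calls, most of whose counts changed when single libraries were left out.

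**Figure D1:**
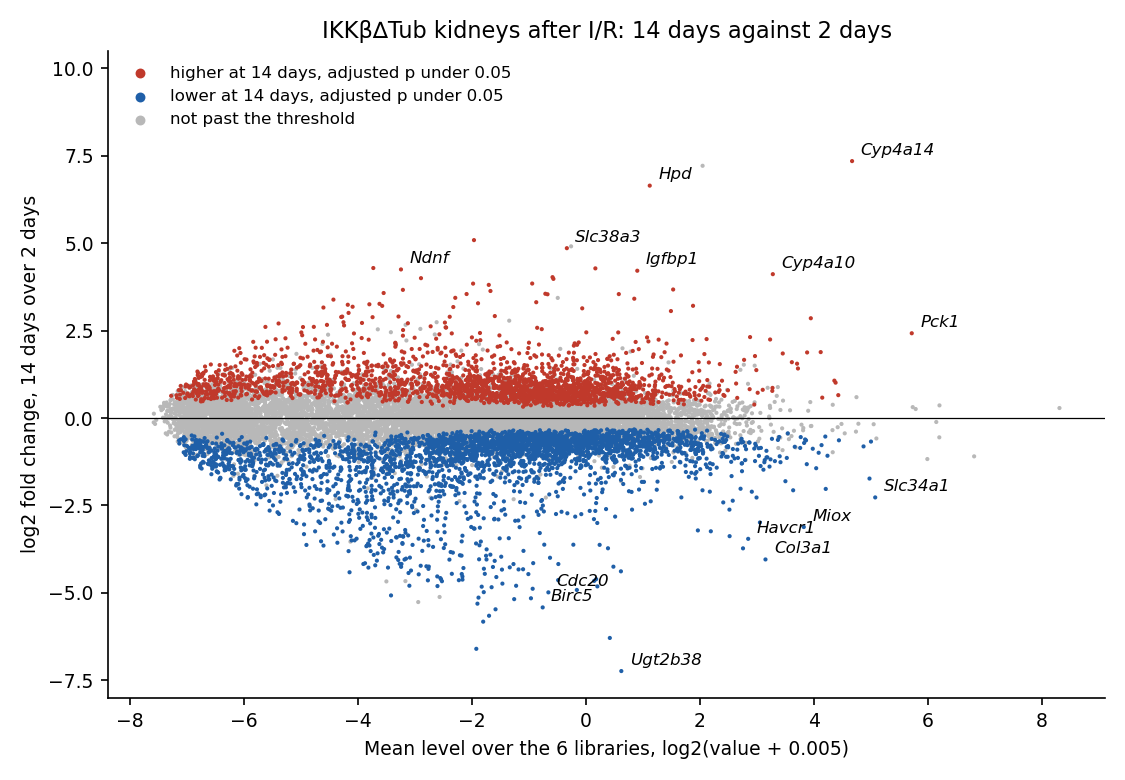
Each point is 1 of the 16342 genes, with its mean level over the 6 libraries on the x axis, as log2(value + 0.005), and its log2 fold change of 14 days over 2 days on the y axis. Red points (2260) were higher and blue points (3143) lower at 14 days at an adjusted p under 0.05, and more of the genes past a 4-fold change lie below 0 (412) than above it (123).

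As a whole, the libraries at 14 days lay nearer to the baseline of their strain than those at 2 days, with baseline in another batch. The root mean square difference in log2 level from the mean of the IKKβ∆Tub baseline libraries was 1.06, 0.679 and 1.03 at 14 days, against 1.18, 1.11 and 1.24 at 2 days, a difference in means of -0.25 (exact permutation test, two-sided, p = 0.1, n = 3 each, the smallest p this design allows). The groups did not overlap. Each baseline library differed from the mean of the other baseline libraries of its strain, by 0.674, 0.386 and 0.423 for replicates 1 to 3. Baseline replicate 1 alone held no Y-linked RNA. These means leave out the library itself, so the values are not a like measure for the distances at 14 and 2 days. Replicate 2 stood apart from the other libraries at 14 days, with a difference of 0.774 from replicate 1 and 0.766 from replicate 3, against 0.529 between replicates 1 and 3.

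Genes of cell division fell throughout. All 30 mitosis genes fell, with a median log2 fold change of -4.33 (range -5.41 to -2.76), and all 26 DNA replication genes fell, with a median of -2.28, against 19.2% of all genes lower. With the Y-linked term all 30 and all 26 again fell, with medians of -4.58 and -2.37. The summed level of the mitosis genes was 0.849, 0.982 and 1.15 at 14 days, against 20.4, 22.4 and 23.6 at 2 days, and 0.390 to 0.396 at baseline. That of the replication genes was 3.53 to 4.71 at 14 days, against 19.8 to 22 at 2 days, and 3.45 to 3.55 at baseline, so the replication genes lay at or just above their baseline range at 14 days and the mitosis genes stayed above theirs.

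Promoters of these genes are shown because the members of each list moved together. The letters searched were not used to choose the lists, and their shares differ between the lists, as given below. The sequences are from RefSeq on GRCm38.p6 and run from 250 bases before to 50 bases after the start of the gene, 5′ to 3′ along its strand. A promoter was found for 25 of the 30 mitosis genes and 21 of the 26 replication genes. Motifs were searched on both strands: TTTGAA, the core of the cell cycle genes homology region (CHR) bound by the DREAM and MuvB complexes, CCAAT, the box bound by NF-Y, and TTTCGCGC or TTTGGCGC, sites of E2F factors, which can overlap on opposite strands. The capitals mark TTTGAA and CCAAT in Cdc20 and Plk1, of the mitosis list, and the E2F letters and CCAAT in Mcm5, of the replication list. Plk1 was chosen after its values were seen.
Cdc20, chr4:118437294-118437593, minus strand: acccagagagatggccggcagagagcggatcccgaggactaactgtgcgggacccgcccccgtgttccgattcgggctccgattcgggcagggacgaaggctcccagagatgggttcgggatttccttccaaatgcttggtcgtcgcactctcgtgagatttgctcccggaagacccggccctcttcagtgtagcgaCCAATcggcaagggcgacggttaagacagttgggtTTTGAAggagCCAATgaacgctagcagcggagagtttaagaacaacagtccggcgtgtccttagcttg
Plk1, chr7:122159185-122159484, plus strand: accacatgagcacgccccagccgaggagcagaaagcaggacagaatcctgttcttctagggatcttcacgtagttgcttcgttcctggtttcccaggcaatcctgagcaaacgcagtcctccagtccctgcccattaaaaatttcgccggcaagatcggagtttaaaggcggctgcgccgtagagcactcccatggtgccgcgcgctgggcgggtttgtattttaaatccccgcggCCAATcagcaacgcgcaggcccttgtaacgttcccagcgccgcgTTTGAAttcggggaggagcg
Mcm5, chr8:75109259-75109558, plus strand: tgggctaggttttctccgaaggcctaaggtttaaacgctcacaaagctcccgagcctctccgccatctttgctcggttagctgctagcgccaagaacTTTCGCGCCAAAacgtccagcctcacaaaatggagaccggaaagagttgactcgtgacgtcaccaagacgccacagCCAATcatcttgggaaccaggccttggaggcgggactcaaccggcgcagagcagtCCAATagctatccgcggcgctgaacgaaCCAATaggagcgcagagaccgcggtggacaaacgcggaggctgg

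TTTGAA was in 19 of the 25 mitosis promoters (76%), in 3 of the 21 replication promoters (14.3%) and in 20.2% of the promoters of all 27025 genes. CCAAT was in 21 of 25 (84%), 12 of 21 (57.1%) and 41.1% of all. Both letters together were in 17 of 25 (68%), 2 of 21 (9.52%) and 7.97% of all. The E2F letters were in 1 of 25 (4%), 8 of 21 (38.1%) and 0.929% of all. A match of letters is a description and not a binding site.

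Cdc20, the activator of the anaphase-promoting complex, had 0.021, 0.041 and 0.0419 at 14 days, against 1.28, 0.957 and 1.43 at 2 days (log2 fold change -4.98, SE 0.26, adjusted p = 8.27e-09). Birc5 (survivin, a subunit of the chromosomal passenger complex) had 0.0154, 0.022 and 0.0293 at 14 days, against 1.3, 0.857 and 1.3 at 2 days (log2 fold change -5.41, SE 0.36, adjusted p = 7.71e-08). Its partner kinase Aurkb (aurora kinase B) had 0.0107, 0.00659 and 0.0133 at 14 days, against 0.52, 0.46 and 0.588 at 2 days (log2 fold change -5.13, SE 0.4, adjusted p = 2.65e-07). Every library at 14 days lay far below every library at 2 days for these genes. Mki67 (Ki-67) had 0.0691, 0.0564 and 0.103 at 14 days, against 1.99, 2.32 and 2.34 at 2 days, and baseline levels of 0.0267, 0.0164 and 0.014. Cdk1, the kinase that drives entry into mitosis, had 0.0395, 0.0527 and 0.0599 at 14 days, against 1.41, 1.18 and 1.52 at 2 days. Its cyclins Ccnb1 and Ccnb2 fell too (-4.82 and -4.8 on the log2 scale). Among the others, Pbk, a mitotic kinase (-5.31), Ube2c, the ubiquitin-conjugating enzyme of the anaphase-promoting complex (-5.18), Cdca3 (-5.15), the spindle checkpoint kinase Ttk (-4.08), Aurka (aurora kinase A, -4.08) and Plk1 (polo-like kinase 1, -4.73) fell together with them. The smallest falls of the list were those of the checkpoint gene Bub1b (-2.77) and the centrosome kinase Nek2 (-2.76), both named after their values were seen.

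In DNA replication, the nucleotide supply genes fell with the helicase. Rrm2, the S-phase subunit of ribonucleotide reductase, had 0.0712, 0.0952 and 0.0732 at 14 days, against 1.87, 2.26 and 2.24 at 2 days (log2 fold change -4.66, SE 0.27, adjusted p = 2.16e-08), and Tk1 (thymidine kinase 1) had 0.0669, 0.0849 and 0.0626 at 14 days, against 1.32, 1.02 and 1.3 at 2 days (log2 fold change -4.0, SE 0.19, adjusted p = 8.24e-09). Baseline levels were 0.0635, 0.074 and 0.0822 for Rrm2 and 0.0826, 0.101 and 0.104 for Tk1, so that at 14 days Rrm2 lay in or above its baseline range and Tk1 in or below it. The replicative helicase genes Mcm2, Mcm3, Mcm4 and Mcm5 fell (-2.37, -2.77, -1.84 and -4.17 on the log2 scale), and Mcm5 had 0.0738, 0.0556 and 0.0832 at 14 days, against 1.32, 1.264 and 1.48 at 2 days. Cdc45, the helicase partner, fell by 2.91.

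**Figure D2:**
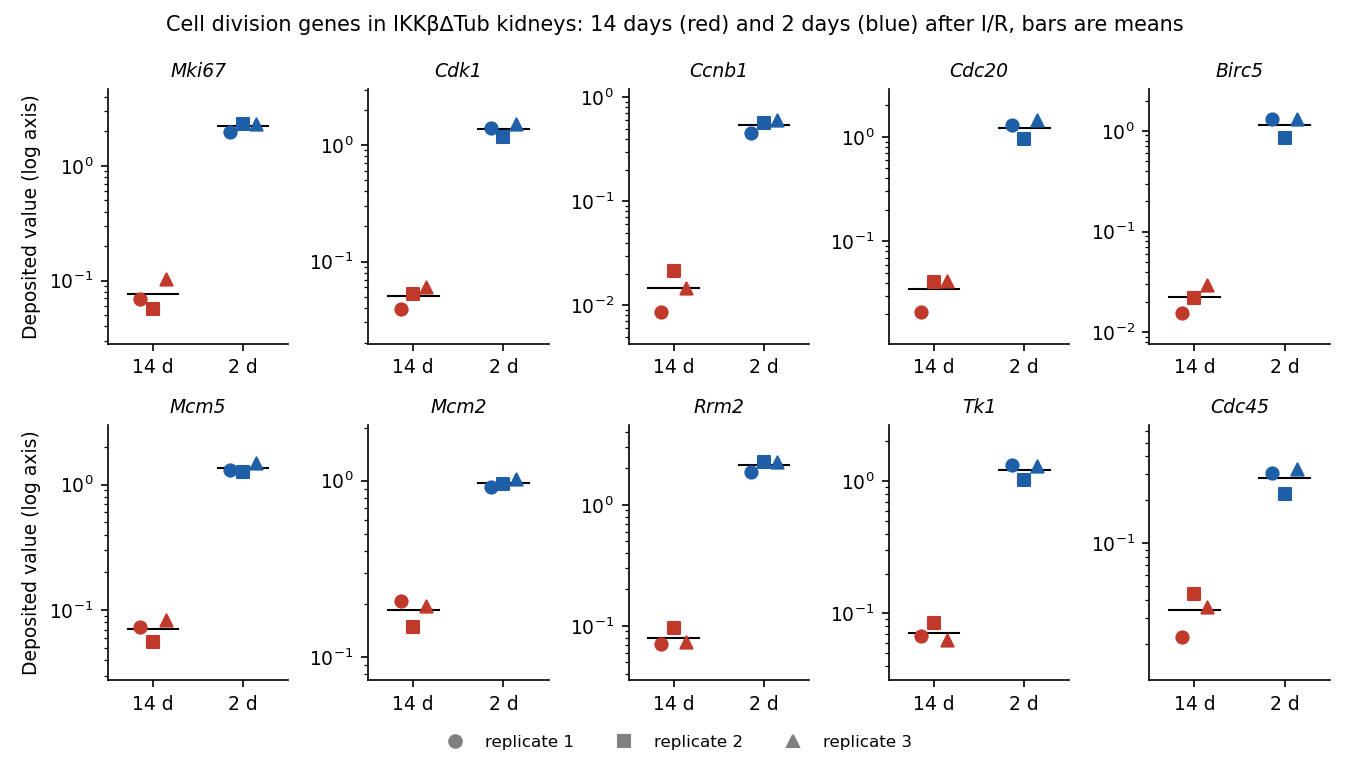
Deposited values (log axis) of 10 cell division genes in each library of IKKβ∆Tub kidneys at 14 days (red, left) and 2 days (blue, right) after I/R, with replicates 1 to 3 as circle, square and triangle and the mean as a bar. The groups do not overlap for any of the 10 genes.

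Injury genes of the tubule fell in part, and unevenly between libraries. Of 23 tested, 11 fell, 1 rose and 11 did not pass, with a median log2 fold change of -1.36, and with the Y-linked term 7 fell and none rose, with a median of -0.75. The count of lower genes was also 7, with a median of -0.75, without replicate 2 at 14 days, and 15 without replicate 3. Havcr1 (kidney injury molecule 1, chromosome 11 from 46735080 to 46779578) had 3.33, 0.247 and 1.77 at 14 days, against 11.6, 11.5 and 14.7 at 2 days (log2 fold change -3.45, SE 1.05, adjusted p = 0.0209). Its baseline levels were 0.0222, 0.0332 and 0.00737, and with the Y-linked term it no longer passed (log2 fold change -3.16, adjusted p = 0.142). S100a6 (a calcium-binding protein) had 2.97, 0.548 and 3.44 at 14 days, against 17.1, 11.7 and 14.1 at 2 days (log2 fold change -2.99, SE 0.56, adjusted p = 0.00111), Vim (vimentin, the filament of dedifferentiated cells) had 1.92, 1 and 3.4 at 14 days, against 7.99, 9.14 and 12.3 at 2 days (log2 fold change -2.36, SE 0.34, adjusted p = 0.000122), and Anxa2 (annexin A2) had 3.79, 1.2 and 3.49 at 14 days, against 10.4, 8.79 and 11.7 at 2 days (log2 fold change -2.02, SE 0.31, adjusted p = 0.00023). In each of these genes replicate 2 was the lowest library at 14 days, and in Anxa2 its level was next to the baseline range of 0.956 to 1.19. Lcn2 (lipocalin 2) had 3.49, 0.54 and 2.69 at 14 days, against 2.62, 3.73 and 2.83 at 2 days, with overlap between the groups (adjusted p = 0.354). Vcam1, an adhesion molecule also expressed by tubule cells that fail to repair, had 2.49, 0.406 and 2.26 at 14 days, against 1.3, 2.01 and 2.34 at 2 days (adjusted p = 0.523), and Sox9, a transcription factor of regenerating tubules, had 0.181, 0.0527 and 0.151 at 14 days, against 0.154, 0.216 and 0.191 at 2 days (adjusted p = 0.21). Replicates 1 and 3 at 14 days were in or next to the 2-day range for Lcn2, Vcam1 and Sox9, and replicate 2 was below it. The gene of the list that rose was Cp (ceruloplasmin, named after its values were seen), with 9.31, 4.44 and 7.86 at 14 days, against 1.04, 1.66 and 1.71 at 2 days (log2 fold change 2.26, SE 0.45, adjusted p = 0.00175).

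Replicate 2 stood apart in many gene groups. It was the lowest of the 3 libraries at 14 days in 22 of 23 tubular injury genes, 20 of 20 macrophage genes, 11 of 11 MHC class II genes, 13 of 14 complement genes and 25 of 34 matrix genes, against 46.3% of all genes tested. It was the highest in 30 of 32 proximal tubule genes, 25 of 26 fatty acid oxidation genes, 17 of 18 TCA cycle genes and 7 of 8 thick ascending limb genes, against 26.8% of all genes tested. These counts describe 1 library and carry no test. Without replicate 2, 2099 genes were higher and 2542 lower at 14 days.

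Many chaperone genes fell. Of 14 tested in the unfolded protein and heat shock list, 8 fell and 1 rose, with a median of -0.82, and the counts with the Y-linked term were the same (median -0.94). The summed level of the list was 31.6 to 36.1 at 14 days, against 62.4 to 77.8 at 2 days, and 59 to 77.3 at baseline, so it lay below baseline at 14 days. Hspa5 (BiP, the chaperone of the endoplasmic reticulum) had 5.06, 5.34 and 5.02 at 14 days, against 15.4, 12.8 and 12.4 at 2 days (log2 fold change -1.39, SE 0.13, adjusted p = 1.68e-06), with 11, 9.26 and 10.6 at baseline. Hsp90b1 (-1.37), the disulfide isomerase gene Pdia4 (-0.92) and the cytosolic chaperone gene Hsp90aa1 (-0.91) fell with it, and Dnajb9, a cochaperone of the endoplasmic reticulum, rose (1.01). Of 18 p53 target genes, 4 fell, 1 rose and 13 did not pass (median -0.30), and 2 fell and 1 rose with the Y-linked term. Cdkn1a (p21) had 2.23, 0.624 and 1.97 at 14 days, against 1.63, 1.4 and 1.72 at 2 days (adjusted p = 0.861), and Ccng1 was at -0.15 on the log2 scale (adjusted p = 0.631). The pro-apoptotic gene Bax fell (-0.99), as did Aen (-0.86) and Mdm2 (-0.45), the ligase that degrades p53, and Trp53inp1, a cofactor of p53, rose (1.83).

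Transport and metabolic genes of the proximal tubule did not move as one group. Of 32 tested, 10 fell, 5 rose and 17 did not pass, with a median of -0.60, and with the Y-linked term 4 fell and 4 rose, with a median of -0.14. Leaving out replicate 2 at 14 days gave 15 lower, 2 higher and a median of -0.91, replicate 1 at 14 days a median of -0.32, replicate 1 at 2 days 6 lower and 3 higher, and replicate 3 at 2 days 2 higher. Slc34a1, the main renal sodium phosphate cotransporter (NaPi-IIa), had 6.92, 17.5 and 11.9 at 14 days, against 68.7, 50.9 and 46.4 at 2 days (log2 fold change -2.27, SE 0.42, adjusted p = 0.00107), with 29.8, 48.5 and 54.3 at baseline. Miox (myo-inositol oxygenase) had 1.262, 6.04 and 2.71 at 14 days, against 35.8, 18 and 21 at 2 days (log2 fold change -3.12, SE 0.51, adjusted p = 0.0004), with 11.4, 12.1 and 11.3 at baseline. Both were thus below their baseline range at 14 days, and Miox was above it at 2 days. Slc5a2 (sodium glucose transporter 2) had 0.978, 3.38 and 1.72 at 14 days, against 7.13, 4.38 and 5.05 at 2 days (log2 fold change -1.59, SE 0.38, adjusted p = 0.0056). Slc17a3, an organic anion transporter (-2.45), and Pdzk1, a scaffold of brush border transporters (-1.33), fell as well. The endocytic receptors did not pass: Lrp2 (megalin) had 6.62, 19 and 5.28 at 14 days, against 15.1, 13.1 and 11.8 at 2 days (adjusted p = 0.251), and Cubn (cubilin) had 2.49, 4.69 and 2.24 at 14 days, against 4.23, 3.26 and 3.99 at 2 days (adjusted p = 0.327), with replicate 2 above and replicates 1 and 3 below every library at 2 days.

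Of the 5 members that rose, Pck1, Slc6a19 and Aqp1 were named after their values were seen. Pck1 (phosphoenolpyruvate carboxykinase, the first committed enzyme of gluconeogenesis) had 65.8, 129 and 71.9 at 14 days, against 16.3, 12.2 and 19.9 at 2 days (log2 fold change 2.42, SE 0.58, adjusted p = 0.00563), with 135, 169 and 149 at baseline. Slc6a19, the neutral amino acid transporter of the brush border, had 9.2, 14.5 and 10.8 at 14 days, against 4.93, 4.35 and 3.89 at 2 days (log2 fold change 1.37, SE 0.24, adjusted p = 0.000725). The water channel Aqp1 (0.99) and the organic anion transporter Slc22a7 (3.84) rose too, the last with 0.00257, 2.88 and 0.198 at 14 days, against 0.0115, 0.00461 and 0.00444 at 2 days, so that replicate 1 did not share the rise. Slc22a7 is also on the female-biased list and did not pass with the Y-linked term (log2 fold change 2.97, adjusted p = 0.302).

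The lists of the downstream segments had few calls, and nothing is read from their number. Of 8 genes of the thick ascending limb 1 fell and none rose (median 0.27), against none with the Y-linked term and 2 higher by edgeR and by DESeq2, and the median was -0.10 without replicate 2 at 14 days and 0.58 without replicate 1. Slc12a1, the sodium potassium chloride cotransporter, had 3.54, 11.8 and 3.14 at 14 days, against 2.92, 5.92 and 2.98 at 2 days (adjusted p = 0.456), and Umod (uromodulin) had 16.7, 62 and 14.5 at 14 days, against 31.1, 43.6 and 37.5 at 2 days (adjusted p = 0.318), with replicate 2 highest in both. Kcnj1 was at 0.37 and Cldn16 at -0.54 (adjusted p = 0.423 and 0.0577), and the paracellular channel gene Cldn10 was the member that fell (-0.83). Of 15 distal nephron and collecting duct genes 3 rose and none fell (median 0.58), and 2 rose with the Y-linked term. Atp6v0d2, a proton pump subunit of intercalated cells, had 1.34, 1.19 and 1.4 at 14 days, against 0.358, 0.419 and 0.404 at 2 days (log2 fold change 1.72, SE 0.23, adjusted p = 7.37e-05), and the magnesium channel gene Trpm6 had 0.296, 0.486 and 0.41 at 14 days, against 0.12, 0.134 and 0.112 at 2 days (log2 fold change 1.64, SE 0.27, adjusted p = 0.000497). Scnn1a, a subunit of the epithelial sodium channel, rose by 0.80. Calb1 (calbindin) had 0.328, 6.61 and 2.04 at 14 days, against 0.364, 0.48 and 0.48 at 2 days, and did not pass (adjusted p = 0.0514). The sodium chloride cotransporter Slc12a3 had 1.63, 10.3 and 3.02 at 14 days, against 4.49, 3.96 and 4.98 at 2 days (adjusted p = 0.683). By edgeR and by DESeq2 on the recovered reads, 8 of the 15 rose, as they did by limma without replicate 1 at 14 days (median 0.92), against 2 without replicate 2 at 14 days (median 0.28).

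Lipid genes held the largest rise among the genes that passed. Cyp4a14, a fatty acid ω-hydroxylase and a classical target of PPARα (chromosome 4 from 115486200 to 115496142, minus strand), had 47.8, 70.4 and 32.7 at 14 days, against 0.144, 0.0983 and 1.66 at 2 days (log2 fold change 7.35, SE 0.96, adjusted p = 5.67e-05), with 88.5, 70.7 and 59.5 at baseline. Cyp4a14 is also on the female-biased list, and passed with the Y-linked term (log2 fold change 6.21, adjusted p = 0.00362). Its neighbour in the family, Cyp4a10, had 15, 28.1 and 11.9 at 14 days, against 0.659, 0.844 and 1.72 at 2 days (log2 fold change 4.11, SE 0.5, adjusted p = 2.73e-05). Of 26 genes of fatty acid oxidation 7 rose, 1 fell and 18 did not pass, with a median of 0.27, and with the Y-linked term 5 rose and none fell, with a median of 0.62. The median was 0.07 without replicate 2 at 14 days and 0.42 without replicate 1. Ppargc1a, the coactivator of mitochondrial biogenesis, had 1.07, 1.81 and 0.95 at 14 days, against 0.379, 0.58 and 0.337 at 2 days (log2 fold change 1.54, SE 0.26, adjusted p = 0.000539). Ppara itself had 1.06, 1.33 and 0.538 at 14 days, against 0.194, 0.474 and 0.19 at 2 days (log2 fold change 1.8, SE 0.44, adjusted p = 0.00626), and was named after its values were seen, as were the acyl-CoA genes Acot12 (1.92) and Acsl1 (1.09), which rose too. Several enzymes of the oxidation spiral and its entry did not pass. Cpt1a, the carnitine gate of mitochondria, had 5.78, 9.66 and 5.31 at 14 days, against 5.19, 6.35 and 5.28 at 2 days (adjusted p = 0.483), and Acadm, the medium-chain dehydrogenase, had 3.26, 24 and 4.85 at 14 days, against 3.83, 3.78 and 3.42 at 2 days (adjusted p = 0.146), where replicate 2 was above the baseline range of 15.7 to 22.7 and replicates 1 and 3 were far below it. Cpt2 was the member that fell (-0.95).

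Hpd, an enzyme of tyrosine breakdown (chromosome 5 from 123171807 to 123182727, minus strand), was next in size of rise among the genes that passed, with 3.68, 5.42 and 3.78 at 14 days, against 0.0292, 0.0148 and 0.107 at 2 days (log2 fold change 6.64, SE 0.61, adjusted p = 1.57e-06) and 1.86, 4.41 and 3.92 at baseline. Slc38a3, a glutamine transporter of the proximal tubule, had 1.259, 2.43 and 0.911 at 14 days, against 0.0375, 0.0476 and 0.0471 at 2 days (log2 fold change 4.86, SE 0.54, adjusted p = 1.15e-05), with 2.27, 5.6 and 4.96 at baseline. At 14 days Hpd lay in or above its baseline range and Slc38a3 in or below it, and at 2 days every library of both genes lay far below baseline. Marc1, a mitochondrial reductase (5.09), the serpin genes Serpina6 (4.29) and Serpina1f (4.28), Slc17a2 (4.0), Eif4ebp3, a translation inhibitor (3.98), and Ceacam2 (3.84) complete the largest rises together with a pair of secreted factors. Igfbp1 (insulin-like growth factor binding protein 1) had 2.76, 1.3 and 6.63 at 14 days, against 0.273, 0.113 and 0.11 at 2 days (log2 fold change 4.21, SE 0.7, adjusted p = 0.00049), and Ndnf, a secreted factor, had 0.172, 0.114 and 0.302 at 14 days, against 0.00937, 0.00614 and 0.000888 at 2 days (log2 fold change 4.25, SE 0.46, adjusted p = 9.99e-06). Igfbp1 and Ndnf were above their baseline levels, which were 0.421, 0.4 and 0.28 for Igfbp1 and 0.0141, 0.00873 and 0.00713 for Ndnf. With the Y-linked term Serpina6, Slc17a2 and Ceacam2 did not pass (log2 fold changes 2.36, 2.03 and 1.28).

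Some carbohydrate and respiratory genes fell, fewer of them with the Y-linked term. Summed levels of the glycolysis list were 43 to 58.1 at 14 days, 76.7 to 96.6 at 2 days and 108 to 115 at baseline. In the same order they were 87 to 160, 153 to 196 and 179 to 216 for oxidative phosphorylation. For the TCA cycle they were 50.2 to 85.3, 77.4 to 89.6 and 114 to 130. The glycolysis sums were thus farther below baseline at 14 days than at 2 days, and the other sums overlapped between the times. Of 18 glycolysis genes 10 fell and 1 rose (median -0.65), and 6 fell and 1 rose with the Y-linked term. Ldha (lactate dehydrogenase A) had 3.78, 4.58 and 5.42 at 14 days, against 14, 10.9 and 13.3 at 2 days (log2 fold change -1.48, SE 0.2, adjusted p = 9.5e-05), and Pgam1 (phosphoglycerate mutase 1) had 0.311, 0.414 and 0.256 at 14 days, against 0.763, 0.711 and 0.727 at 2 days (log2 fold change -1.18, SE 0.15, adjusted p = 5.65e-05), with 2.12, 2.06 and 2.06 at baseline. The hexokinase genes Hk1 and Hk2 did not pass (log2 fold changes 0.05 and -0.33, adjusted p = 0.89 and 0.678), and Hk3, the leukocyte hexokinase, had 0.048, 0.0146 and 0.0446 at 14 days, against 0.104, 0.0916 and 0.121 at 2 days (log2 fold change -1.56, SE 0.37, adjusted p = 0.00504). Gpi1 fell by 0.47. Pfkfb3, which makes the activator of phosphofructokinase, was the member that rose, with 0.667, 0.632 and 0.857 at 14 days, against 0.269, 0.306 and 0.361 at 2 days (log2 fold change 1.19, SE 0.2, adjusted p = 0.000437), and its baseline was 0.86, 1.3 and 1.14. Of 25 nuclear genes of oxidative phosphorylation 9 fell and none rose (median -0.51), and of 18 TCA cycle genes 8 fell and none rose (median -0.45). With the Y-linked term none of the 25 was called in either direction, and 3 TCA cycle genes fell and 1 rose. Counts of lower oxidative phosphorylation genes were 2 without replicate 1 at 14 days (median -0.26), 2 without replicate 1 and 5 without replicate 3 at 2 days, and 1 with only the 6 libraries compared. For the TCA cycle they were 4 without replicate 1 at 14 days, and 3 without replicate 1 and 5 without replicate 3 at 2 days. Cycs (cytochrome c) had 0.655, 0.977 and 1.07 at 14 days, against 2.61, 2.54 and 2.1 at 2 days (log2 fold change -1.44, SE 0.28, adjusted p = 0.0014), and Cyc1 and Uqcrc1, subunits of complex III, fell (-0.81 and -0.66), and Ndufs1 of complex I was at -0.35 (adjusted p = 0.175). Cs (citrate synthase) had 2.65, 3.3 and 2.59 at 14 days, against 4.92, 4.43 and 4.83 at 2 days (log2 fold change -0.74, SE 0.13, adjusted p = 0.000574), and Idh3a and Mdh2 fell (-0.82 and -0.9). The fall of Cs, Idh3a and Mdh2 also passed with the Y-linked term.

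Of 21 glutathione and detoxification genes 6 fell and 3 rose, with a median of -0.40, and 3 fell and 1 rose with the Y-linked term, with a median of 0.10. Leaving out 1 library gave 0 to 2 higher and medians of -0.75 (without replicate 2 at 14 days) to -0.19 (without replicate 1 at 14 days). Gsta1 had 0.0163, 0.0146 and 0.0107 at 14 days, against 0.246, 0.166 and 0.167 at 2 days (log2 fold change -3.38, SE 0.37, adjusted p = 1.16e-05), and Gstp1 had 0.617, 0.704 and 0.697 at 14 days, against 2.49, 1.75 and 2.04 at 2 days (log2 fold change -1.62, SE 0.21, adjusted p = 5.52e-05). Gstt1 fell by 1.10 and Gsta2 rose by 0.78. Gsta3 and Gsta4 were at 0.07 and -0.38 (adjusted p = 0.838 and 0.604). The Gsta genes are close copies, as are members of the Cyp4a, Ugt2b and Serpina1 families, and reads could be split between them.

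**Figure D3:**
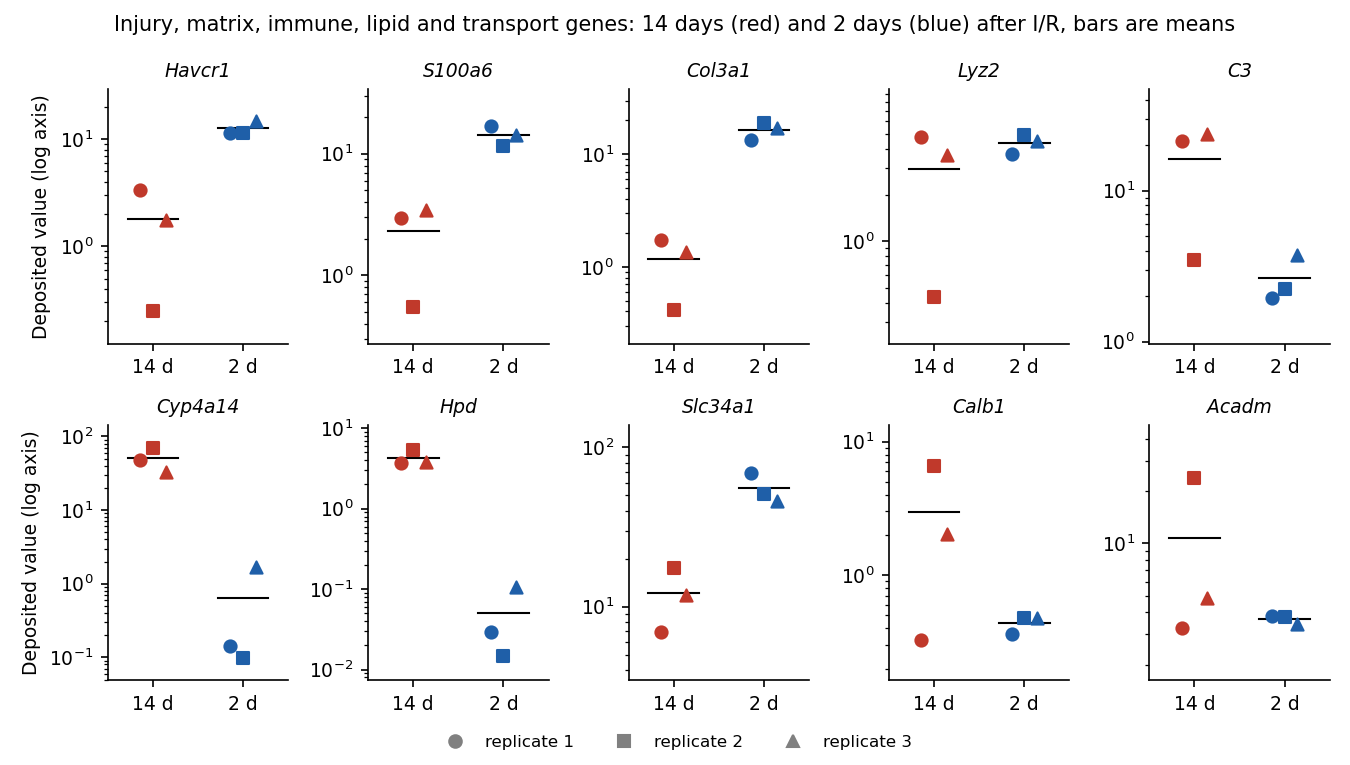
Deposited values (log axis) of 10 genes in each library of IKKβ∆Tub kidneys at 14 days (red, left) and 2 days (blue, right) after I/R, with replicates 1 to 3 as circle, square and triangle and the mean as a bar. Replicate 2 at 14 days (red square) is the lowest of its group for Havcr1, S100a6, Col3a1, Lyz2 and C3 and the highest for Cyp4a14, Hpd, Slc34a1, Calb1 and Acadm.

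Most matrix genes fell. Of 34 tested 22 fell, 2 rose and 10 did not pass, with a median of -1.29, and with the Y-linked term 22 fell and 1 rose, with a median of -1.71. Among the fibrillar collagen genes, Col3a1 had 1.72, 0.414 and 1.36 at 14 days, against 13.5, 19.1 and 17.2 at 2 days (log2 fold change -4.04, SE 0.61, adjusted p = 0.000198), with 0.186, 0.15 and 0.109 at baseline, and Col1a1 had 1.72, 0.476 and 0.981 at 14 days, against 10.6, 13.3 and 13.5 at 2 days (log2 fold change -3.73, SE 0.54, adjusted p = 0.000144), with 0.0942, 0.13 and 0.0815 at baseline. Both were above every baseline library in every library at 14 days. Col6a3 had 0.22, 0.0878 and 0.123 at 14 days, against 2.48, 3.15 and 3.11 at 2 days (log2 fold change -4.38, SE 0.46, adjusted p = 7.36e-06), with libraries below, within and above the baseline range of 0.113 to 0.144. Acta2 (smooth muscle actin of myofibroblasts) had 0.576, 0.787 and 0.921 at 14 days, against 8.16, 5.84 and 7.12 at 2 days (log2 fold change -3.21, SE 0.28, adjusted p = 7.28e-07). Col1a2 (-2.27), Col5a1 (-2.89) and Col14a1 (-2.43) fell too. The members that rose were named after their values were seen: Lox (lysyl oxidase, the collagen crosslinking enzyme) had 5.22, 1.85 and 2.83 at 14 days, against 0.169, 0.374 and 0.342 at 2 days (log2 fold change 3.41, SE 0.57, adjusted p = 0.000501), with 0.413, 0.266 and 0.256 at baseline, and Dcn (decorin, a small proteoglycan) had 4.66, 2.79 and 2.87 at 14 days, against 1.35, 1.43 and 1.58 at 2 days (log2 fold change 1.2, SE 0.26, adjusted p = 0.0032).

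The neutrophil list held 14 genes, of which 9 passed the filter on low values. Of these 8 fell, with a median of -2.75, against 19.2% of all genes lower, and 7 fell with the Y-linked term. The filter can be met by the 3 libraries at 2 days alone, where the list was high, so nothing is read from the count. S100a8 had 0.0253, 0.00732 and 0.0366 at 14 days, against 0.655, 0.594 and 0.409 at 2 days (log2 fold change -4.45, SE 0.6, adjusted p = 7.5e-05), its partner S100a9 in calprotectin had 0.0202, 0.00878 and 0.0539 at 14 days, against 0.705, 0.642 and 0.563 at 2 days (log2 fold change -4.55, SE 0.64, adjusted p = 0.000108), and the chemokine receptor gene Cxcr2 had 0.00901, 0.000732 and 0.00932 at 14 days, against 0.138, 0.227 and 0.0968 at 2 days (log2 fold change -3.84, SE 0.43, adjusted p = 1.32e-05). Retnlg fell by 2.75. The summed level of the list was 0.283, 0.0849 and 0.328 at 14 days, against 2.67, 2.85 and 2.01 at 2 days, and 0.11 to 0.501 at baseline.

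From the counts of macrophage genes nothing is read, as stated above. Of 20 tested 5 fell, 1 rose and 14 did not pass, with a median of -0.83, and 2 fell with the Y-linked term (median -0.52). The median rested on single libraries: without replicate 2 at 14 days 4 rose and 3 fell, with a median of -0.07, and without replicate 1 or 3 at 14 days 10 or 8 fell, with medians of -1.36 and -1.25. Their summed level was 21, 3.84 and 17.9 at 14 days, against 17, 19.7 and 18.9 at 2 days, and 1.97 to 2.47 at baseline, so that replicates 1 and 3 at 14 days were in or next to the 2-day range and replicate 2 was near baseline. Lyz2 (lysozyme) had 4.73, 0.433 and 3.66 at 14 days, against 3.7, 4.87 and 4.49 at 2 days (adjusted p = 0.157), Csf1r, the receptor of the macrophage growth factor, had 1.6, 0.827 and 1.03 at 14 days, against 1.24, 1.53 and 1.34 at 2 days (adjusted p = 0.341), and Cd68 had 0.455, 0.108 and 0.449 at 14 days, against 0.622, 0.516 and 0.634 at 2 days (adjusted p = 0.0881). Adgre1 (F4/80) had 0.333, 0.0615 and 0.243 at 14 days, against 0.385, 0.535 and 0.385 at 2 days (log2 fold change -1.29, SE 0.43, adjusted p = 0.0301). Arg1 (arginase 1) fell most, with 0.039, 0.00146 and 0.00799 at 14 days, against 0.0531, 0.186 and 0.233 at 2 days (log2 fold change -3.16, SE 0.74, adjusted p = 0.00476), and Fcgr1 (-1.95) and Itgam (-2.07) fell as well.

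Of 17 T and NK cell genes 2 rose and 1 fell (median 0.28), and 1 rose with the Y-linked term. The cytokine receptor gene Il7r had 0.0588, 0.0132 and 0.0932 at 14 days, against 0.00521, 0.0118 and 0.0071 at 2 days (log2 fold change 1.93, SE 0.42, adjusted p = 0.00298), Cd4 rose by 1.31, and Cd3e had 0.0137, 0.00512 and 0.00799 at 14 days, against 0.00312, 0.00461 and 0.00799 at 2 days (adjusted p = 0.246), which is few reads. Of 8 B cell and plasma cell genes 1 rose, Jchain, the joining chain of secreted antibody, with 0.161, 0.13 and 0.275 at 14 days, against 0.0646, 0.0415 and 0.0542 at 2 days (log2 fold change 1.68, SE 0.42, adjusted p = 0.00764), and none with the Y-linked term. The MHC class II list, which also holds the cytokine receptor gene Flt3, gave 1 call of 11 by limma, Flt3 itself (0.97). It gave 5 higher by edgeR and none with the Y-linked term, and 7 were higher without replicate 2 at 14 days and 3 lower without replicate 3. H2-Aa had 2.35, 0.594 and 4.1 at 14 days, against 0.991, 0.661 and 0.957 at 2 days (adjusted p = 0.109) and H2-Ab1 had 1.59, 0.435 and 3.5 at 14 days, against 1.1, 0.7 and 1.15 at 2 days (adjusted p = 0.51), with replicates 1 and 3 above every library at 2 days and replicate 2 below them.

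Of 23 chemokine genes 11 fell and 1 rose (median -0.95), and 5 fell with the Y-linked term. Without replicate 2 at 14 days 6 fell, and without replicate 1 or replicate 3 at 2 days 7 fell. Ccl2, the monocyte attractant, had 0.0326, 0.0132 and 0.0739 at 14 days, against 0.148, 0.178 and 0.355 at 2 days (log2 fold change -2.52, SE 0.5, adjusted p = 0.00159), Ccl7 had 0.00558, 0 and 0.00533 at 14 days, against 0.0677, 0.0609 and 0.111 at 2 days (log2 fold change -3.33, SE 0.34, adjusted p = 4.34e-06), and Cx3cl1 (fractalkine) had 1.14, 0.898 and 1.13 at 14 days, against 3.83, 3.29 and 4.04 at 2 days (log2 fold change -1.82, SE 0.21, adjusted p = 1.91e-05). Ccl12 fell by 1.74. Ccl3 and Ccl5 did not pass (0.14 and -0.34, adjusted p = 0.733 and 0.6). The member that rose, named after its values were seen, was the epithelial chemokine gene Ccl28 (3.17), with 0.1, 0.78 and 0.214 at 14 days, against 0.0219, 0.0353 and 0.0178 at 2 days, and with the Y-linked term it did not pass (log2 fold change 1.51).

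The list downstream of the deleted kinase had few calls, and nothing is read from their number, with 13.8% of all genes higher and 19.2% lower. Of 22 NF-κB feedback and target genes 2 rose, 2 fell and 18 did not pass, with a median of -0.0034, and with the Y-linked term 1 fell. Nfkbia (IκBα, the first inhibitor that NF-κB induces) had 1.54, 1.03 and 1.98 at 14 days, against 0.877, 0.877 and 1.05 at 2 days (adjusted p = 0.124), and Nfkbib, Nfkbie and Nfkbiz were at 0.19, -0.35 and 0.14 (adjusted p = 0.596, 0.475 and 0.775). Tnfaip3 (A20, a feedback inhibitor) had 0.544, 0.268 and 0.445 at 14 days, against 0.143, 0.175 and 0.21 at 2 days (log2 fold change 1.19, SE 0.3, adjusted p = 0.00773), and Birc2 rose by 0.79. Il1b (interleukin 1β) had 0.0442, 0.00586 and 0.0313 at 14 days, against 0.173, 0.124 and 0.109 at 2 days (log2 fold change -2.36, SE 0.43, adjusted p = 0.000872). Among the kinase subunits, Ikbkg (NEMO, the scaffold) rose by 0.59, and Chuk (IKKα) was at 0.61 (adjusted p = 0.0951), next to Ikbkb at -0.19 (adjusted p = 0.437).

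Of 14 complement genes 3 rose and 2 fell (median 0.07), and 1 each way with the Y-linked term (median -0.24). C3, the central component, had 21.4, 3.46 and 23.6 at 14 days, against 1.94, 2.23 and 3.78 at 2 days (log2 fold change 2.24, SE 0.6, adjusted p = 0.0107), with 1.21, 1.08 and 0.915 at baseline, and replicate 2 at 14 days within the 2-day range. Cfp (properdin, the activator of the alternative pathway) had 0.14, 0.0425 and 0.152 at 14 days, against 0.645, 0.58 and 0.635 at 2 days (log2 fold change -2.61, SE 0.34, adjusted p = 5.3e-05). C5ar1, the receptor of the C5a peptide, fell by 1.76, and C4b was at -1.11 (adjusted p = 0.0693). Of 18 interferon response genes 4 fell and 1 rose (median -0.28), and 3 fell with the Y-linked term: Bst2 had 0.249, 0.145 and 0.448 at 14 days, against 0.753, 0.614 and 0.865 at 2 days (log2 fold change -1.52, SE 0.34, adjusted p = 0.0034), and Ifit2 rose by 1.13. Of 15 immediate early genes 2 fell and none rose (median -0.08), and 1 fell with the Y-linked term, with Fosl1 at -2.79 (adjusted p = 0.000626) and Fos at -0.83 (adjusted p = 0.483).

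The vascular and glomerular lists had few calls, and nothing is read from their number. Of 12 endothelial genes 1 fell, Eng (endoglin), with 1.95, 2.67 and 1.71 at 14 days, against 3.46, 3.12 and 4.24 at 2 days (log2 fold change -0.78, SE 0.19, adjusted p = 0.00587), and the list median was 0.02. Eng also fell with the Y-linked term. Pecam1 and Cdh5 were at 0.43 and 0.03 (adjusted p = 0.0594 and 0.907). Of 15 hypoxia and angiogenesis genes 4 rose and 1 fell (median 0.21), none with the Y-linked term, and Flt1, a receptor of vascular endothelial growth factor, rose by 0.71. Of 7 podocyte genes 1 rose, the transcription factor Wt1 (0.99), and none with the Y-linked term, and Nphs1 (nephrin) was at 0.31 (adjusted p = 0.394). Of 15 cholesterol synthesis genes 1 rose, Insig1 (1.3), also with the Y-linked term.

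**Figure D4:**
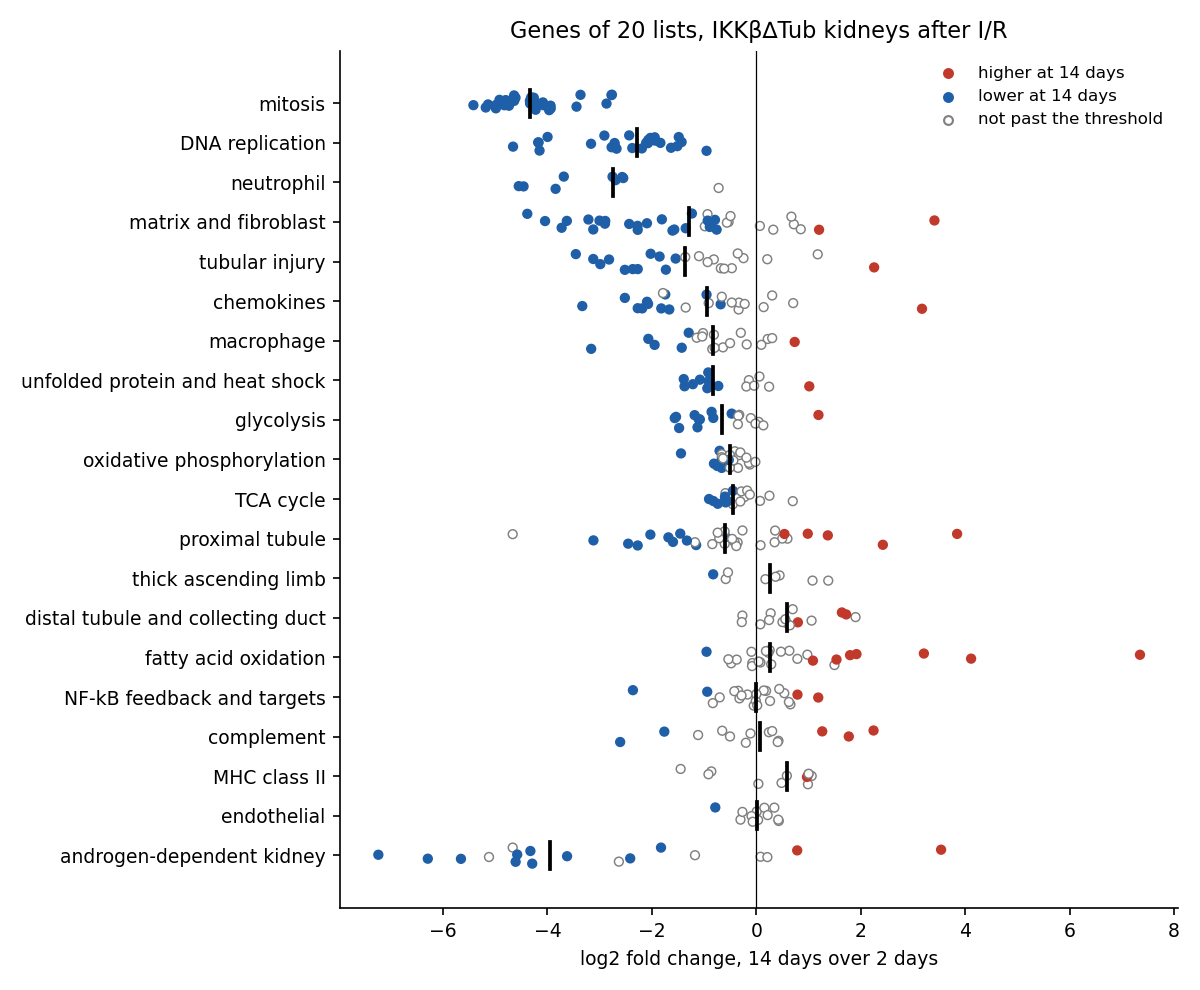
Log2 fold change of 14 days over 2 days (x axis) of each tested gene of 20 lists (rows), with red for genes higher and blue for genes lower at 14 days at an adjusted p under 0.05, open circles for the rest and a black bar at the median of the list. The mitosis and DNA replication lists lie wholly to the left of 0, with medians of -4.33 and -2.28, and the endothelial list lies around 0.02.

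Genes of sex-dependent kidney expression were among the largest falls. Of 18 androgen-dependent kidney genes 10 fell and 2 rose, with a median of -3.96, and with the Y-linked term 3 fell and 2 rose, with a median of -0.32. With the Y-linked level as a covariate, added after the data were seen, 10 fell and 1 rose, with a median of -2.15. The loss of calls thus depended on how Y-linked RNA was entered. Cyp2j13 had 0.0313, 0.0139 and 0.0386 at 14 days, against 3.66, 2.94 and 1.32 at 2 days (log2 fold change -6.29, SE 1.74, adjusted p = 0.0127), with 0.00353, 2.06 and 2.22 at baseline, where replicate 1 alone held no Y-linked RNA, and with the Y-linked term it was at log2 fold change -0.74, adjusted p = 0.571. Ugt2b38, a glucuronosyltransferase (chromosome 5 from 87409942 to 87424203, minus strand), had 0, 0.000732 and 0.264 at 14 days, against 2.84, 3.35 and 2.75 at 2 days (log2 fold change -7.23, SE 1.24, adjusted p = 0.000576), and passed with the term as well (log2 fold change -6.82, adjusted p = 0.0133). Odc1 (ornithine decarboxylase, the first enzyme of polyamine synthesis) had 1.58, 1.73 and 1.68 at 14 days, against 10.8, 7.68 and 8.43 at 2 days (log2 fold change -2.41, SE 0.26, adjusted p = 8.3e-06), below its baseline of 4.03, 6.63 and 7.41, and Hsd3b2 fell by 3.62, and both passed with the term. Cyp4a12b fell by 1.82, and Cyp4a12a, Slc7a13 and Kap were at -2.63, -4.66 and -1.17 (adjusted p = 0.0603, 0.0506 and 0.546), where Kap, an androgen-regulated proximal tubule gene, had 3.06, 189 and 17.7 at 14 days, against 80.6, 70.5 and 20.7 at 2 days. The carboxylesterase gene Ces1g (-5.82) and Slc22a28 (-5.65) were among the largest falls too, and with the term Ces1g passed and Slc22a28 did not. Of 15 female-biased genes 3 rose (median 0.71), and 3 rose and 1 fell with the Y-linked term. Those that rose were Cyp4a14 and Slc22a7, described above, and the prolactin receptor gene Prlr, with 0.567, 2.29 and 0.529 at 14 days, against 0.0458, 0.0471 and 0.159 at 2 days (log2 fold change 3.55, SE 0.99, adjusted p = 0.0132), and Cyp2a5 had 2.48, 3.25 and 1.74 at 14 days, against 0.767, 0.709 and 0.401 at 2 days (adjusted p = 0.0577). Kdm5d had no read at 14 days against a mean of 0.177 ± 0.0836 (SD, n = 3) at 2 days, which is at least 97.1-fold lower from a floor of 3 reads in each library (counting error only). Of the largest falls, Eif2s3y and Kdm5d are Y-linked and are no measure of time.

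**Figure D5:**
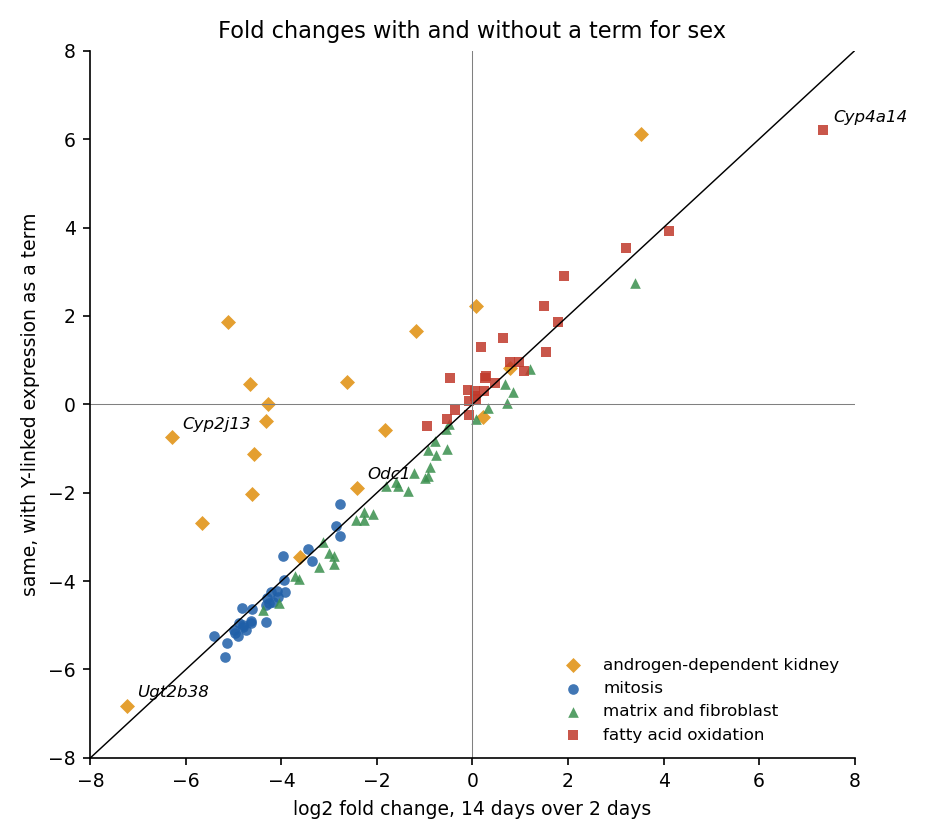
Log2 fold change of 14 days over 2 days without (x axis) and with (y axis) presence of Y-linked RNA as a term, for the genes of 4 lists, with the line of equal values. Mitosis genes lie along the line, matrix genes lie on it or somewhat below, and androgen-dependent genes lie mostly above it, with a median of -0.32 with the term against -3.96 without.

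Markers of tissues that border the kidney were checked in the same libraries. Adipocyte genes gave no call (9 tested, median -1.24) and 1 lower with the Y-linked term (median -3.61), with a summed level of 3.13 to 27.8 at 14 days, against 3.69 to 10.4 at 2 days, and Adipoq had 0.0253, 0.0176 and 0.202 at 14 days, against 0.264, 0.0128 and 0.388 at 2 days (adjusted p = 0.57), with replicate 2 at 2 days apart from the others of its group. Of 3 skeletal muscle genes 1 fell (Acta1, -1.98), of 6 urothelium genes 1 fell (Krt5, -2.65), and of 6 red blood cell genes none was called. The adrenal cortex enzymes Cyp11b1, Cyp11a1 and Cyp21a1 did not pass the filter, and the tested genes of that list, Star (0.8) and Hsd3b1 (2.6), rose. The part of these tissues in the results was not tested.

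Whether the course over time differed between strains was tested by the interaction of genotype and time, (14 days over 2 days in IKKβ∆Tub) over (14 days over 2 days in control). It passed in 10 genes (0.0612%), with 1608 genes at an unadjusted p under 0.05. Mmp9 (gelatinase B, chromosome 2 from 164940780 to 164955850), a matrix protease of neutrophils, had 0.0189, 0.0132 and 0.0206 at 14 days, against 0.267, 0.342 and 0.246 at 2 days in IKKβ∆Tub (log2 fold change -3.68, SE 0.25, adjusted p = 7.71e-08). The control libraries had 0.108, 0.0939 and 0.0881 at 14 days, against 0.103, 0.11 and 0.108 at 2 days, so that the course of control was flat (log2 fold change -0.15). The interaction of Mmp9 was -3.54 (SE 0.35, adjusted p = 0.000617), and it was the one gene that also passed with the Y-linked term (adjusted p = 0.0359) and with only the 12 libraries after I/R (adjusted p = 0.000236). The genotype of the libraries labelled control at 2 days is subject to the doubt given above. Beyond these 10 genes, no change was shown to differ between the strains.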

How the data were processed

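Whole kidney RNA was measured by stranded poly(A) RNA-seq in 18 libraries, 3 in each of 6 groups. The authors aligned reads with STAR 2.5.2b to GRCm38 and counted them per gene with featureCounts 1.5.2. The deposited signal values are counts divided by the 90th percentile of each library, and whole reads were recovered from 100% of them (within 0.001 read). Genes at 0.005 or more in 3 libraries were tested with limma 3.58.1 in R 4.3.3 on log2(value + 0.005), on all 18 libraries, with Benjamini-Hochberg adjustment and a threshold of 0.05. Alternatives included edgeR 4.0.16 and DESeq2 1.42.0 on recovered reads, a term for Y-linked RNA (a summed level of at least 0.1) and a replicate block. The fits were tested on simulated data. Positions are from GENCODE M21 by gene ID, and promoters from RefSeq.

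Named genes are Ikbkb and Vmn1r32, the 12 largest changes in each direction without overlap and with a mean of at least 0.05, and of each list the first 4 genes and the 3 of smallest p; others were chosen after their values were seen. The libraries and lists were chosen with earlier results of these data known. Replicate numbers were not taken to pair the libraries, since the sample key gives different mice at each time, although the sample titles repeat the mouse numbers. Some members of the lists are not reported here by name.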

Additional observations from a re-analysis of the deposited data

Results flagged for a closer look

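In 10 genes the change over time differed between IKKβ∆Tub and control by the interaction term of limma (adjusted p under 0.05), and each is given as log2 fold changes of 14 days over 2 days. The strain marks put the genotype of libraries at 2 days in doubt, and sex differed between the groups. Mmp9 had an interaction of -3.54 (IKKβ∆Tub -3.68, control -0.15). It was the only one of the 10 genes to pass also with the Y-linked term and with only the 12 libraries after I/R. The monocyte attractant gene Ccl7 had -3.18 (IKKβ∆Tub -3.33, control -0.15), and the interleukin 36 gene Il1f9 had -2.0 (IKKβ∆Tub -2.18, control -0.18). The coagulation factor genes F10 and F7 had fold changes of opposite sign in the strains in the main fit, with -3.18 for F10 (IKKβ∆Tub -1.35, control 1.83) and -2.59 for F7 (IKKβ∆Tub -1.20, control 1.39). Opposite signs were also found in Acod1, which makes itaconate (interaction -2.01, IKKβ∆Tub -0.80, control 1.21), in the protease gene Mmp25 (interaction -1.45, IKKβ∆Tub -0.74, control 0.72) and in the receptor gene Pira2 (interaction -1.64, IKKβ∆Tub -1.09, control 0.55). Gm5150 had -1.8 (IKKβ∆Tub -2.50, control -0.70). Vmn1r32, the strain mark, had 2.98 (IKKβ∆Tub 1.31, control -1.66). Acod1, Mmp25 and Pira2 rest on few reads, with no library of the 12 above 0.014. Levels of F7 were low as well, at 0.000732 to 0.0315. F7, F10, Mmp25, Gm5150, Pira2, Acod1 and Il1f9 were named after their values were seen.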

How the results depend on the processing

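The counts of genes higher and lower at 14 days stayed within 1.5 times of the main counts under edgeR (2574 and 2651), DESeq2 (2969 and 2919), median-ratio scaling, a pseudocount of 0.05, no filter on low values, an intensity trend, the 12 libraries after I/R and, added after the data were seen, the Y-linked level as a covariate (1803 and 2897). They were 912 and 1879 with the Y-linked term, where Eif2s3y (0.68) and Kdm5d (0.68) changed sign, and 1052 and 1842 with only the 6 libraries compared. The interaction passed in 1 gene with the Y-linked term and in 1 with the 12 libraries after I/R. Leaving out 1 library gave 1270 to 2490 genes higher and 2123 to 3432 lower, with 1270 higher without IKKβ∆Tub 2-day replicate 1 and 1464 without replicate 3. In the same runs the difference in distance to baseline was -0.32 to -0.13, with an exact permutation p of 0.2 in each case. That is the smallest p possible once a library is left out. With the replicate number as a block, 725 genes were higher and 1382 lower. The deviations of same-numbered libraries correlated at -0.34, 0.11 and 0.36, against -0.46 to 0.30 for libraries of unlike number. With so few libraries these correlations cannot decide whether the numbers pair the libraries. Of 203 named genes, 150 passed in the main fit, and 39 of these, besides Eif2s3y and Kdm5d, did not pass with the Y-linked term and 37 with the block. The cause of these changes was not tested. At this depth, 3 reads correspond to 0.00129 to 0.00312 in the 6 libraries, which limits the lowest genes.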

Other observations

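Of 10 clock genes, all chosen after values were seen, 6 rose, against 13.8% of all genes higher. As the choice used these values, nothing is read from the count. Nr1d1 (REV-ERBα, a repressor of the molecular clock) had 1.96, 1.46 and 1.73 at 14 days, against 0.197, 0.192 and 0.179 at 2 days (log2 fold change 3.14, SE 0.3, adjusted p = 2.62e-06), and Dbp, a clock output transcription factor, had 1.28, 1.86 and 1.96 at 14 days, against 0.335, 0.296 and 0.277 at 2 days (log2 fold change 2.45, SE 0.2, adjusted p = 4.61e-07). Baseline levels were 1.44, 1.47 and 0.689 for Nr1d1 and 0.848, 0.944 and 0.842 for Dbp. Bhlhe41 (1.5), Nr1d2 (1.37), Per1 (1.14) and Per3 (1.11) rose as well by limma, and of these all but Per3 passed with the Y-linked term. Arntl (BMAL1, the activator), Clock, Cry1 and Per2 did not pass, with log2 fold changes of 0.04, 0.49, 0.44 and 0.25. The hour at which kidneys were taken is not given in the sources used here, and its part in these values was not tested.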
